A study of Rattus norvegicus with 32 samples.

Results

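The duodenum, the stretch of small intestine that follows the stomach, was compared between lactating dams and control rats on 8 of the 32 arrays of the series, 4 arrays per state. All animals were female Sprague-Dawley rats. The 16 lactating dams were on day 10 to 11 of lactation with pups taken from large litters to narrow the range of litter sizes, the 16 controls were virgins of matched age, and both were killed at hour 16. Each array carried the pooled RNA of 4 rats, and 1 pool number stood for the same 4 rats in the duodenum, jejunum, ileum and liver, so a group holds 4 pools and not 16 animals. Because the controls had never been pregnant, earlier pregnancy, suckling and greater food intake cannot be told apart in this comparison. GEO's labels speak of homogenized tissue, whereas the methods describe mucosa scraped from the piece taken just after the pyloric sphincter. The rule took the lactating minus the control log2 level of every transcript cluster that carries 1 gene symbol, which were 13335 of 19434 clusters and 13222 different genes.

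The duodenum receives food from the stomach, bile from the liver and enzymes from the pancreas, and its enterocytes take up iron, calcium and other minerals. Hormone cells, mucus-producing goblet and Brunner gland cells, and defence cells lie among them. The pancreas rests against the duodenal wall, and its acinar cells make the digestive enzymes: trypsins, chymotrypsins, elastases, lipases, amylase and ribonuclease. In lactating rats, food intake and the need for minerals, lipid and protein rise with milk production.

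Epithelial genes were high in every duodenum pool. Fabp2, the fatty acid-binding protein of enterocytes, had a mean level of 13.51 in control and 13.34 in lactating pools, and Cdh17, an intestinal cadherin, of 12.83 and 12.87. Levels are log2 values of the robust multi-array average and ran from 0.82 to 14.41 over all arrays. None of the 7 measured genes of the epithelial list passed the test, and their summed linear level was 31572 to 35759 in control and 31668 to 33157 in lactating pools. The 8 duodenum arrays had medians between 4.74 and 4.81.

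Of the 13222 named genes, 107 (0.809%) passed limma's moderated test at an adjusted p under 0.05, 63 higher (0.476%) and 44 lower (0.333%) in lactating pools. The counts given below for gene lists are to be read beside these shares. The adjustment is that of Benjamini and Hochberg over all 19434 clusters, and each SE rests on a spread pooled over the 8 groups of the series. At least 2-fold lower were 25 genes, and at least 2-fold higher 23. Among the falls, 25 of 44 belonged to 2 lists of pancreatic acinar genes, while 62 of the 63 rises and 19 falls lay outside them. The largest falls were acinar. Outside the acinar lists the largest fall (Klk1b3, −1.82 on the log2 scale) was smaller than the largest rise (Slc34a2, 3.78). With pools matched by number as a fixed block, 317 named genes (2.4%) passed, 229 higher and 88 lower, and all 107 were among them. With the 8 duodenum arrays alone, 28 passed, 17 higher and 11 lower, and without lactating pool 3, 69 passed, 34 of them higher. With arrays quantile-normalized within each tissue, 47 of 109 calls were rises (43.1%), against 58.9% in the comparison as reported. The lactating pools lay all above or all below the control pools for 883 named genes (6.68%), 4.59% above and 2.09% below, and for 99 of the 107 called genes.

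The acinar enzymes showed the largest differences in the duodenum. Of 33 secreted acinar proteins on the list, 25 were measured, 20 were lower in lactating pools, 1 (Reg1a) was higher, and 4 did not pass the test. The median difference of the 25 was −4.05, beside 0.05 for all 13222 named genes and beside 0.06, −0.04 and 0.05 for the same 25 in the jejunum, ileum and liver. The falls covered lipases, proteases, a ribonuclease and proteins of the secretory granule. Fewer acinar cells in a sample and less enzyme RNA per cell cannot be told apart in such bulk RNA.

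Promoter sequence of 2 of these genes is printed because it carries the letters of the acinar factor Ptf1a, whose complex binds a CACCTG box and a TTTCCCA box. Both are RefSeq sequence of build GRCr8, 250 bases that end just before the start site, written 5′ to 3′ on the strand of the gene, with CACCTG and TTTCCCA in capitals and TGGGAAA marking TTTCCCA on the other strand. Ctrb1, which encodes chymotrypsinogen B, is on chromosome 19, minus strand, at chr19:56566979-56567228. Cela3b, an elastase-family protease, is on chromosome 5, minus strand, at chr5:154920334-154920583.
Ctrb1: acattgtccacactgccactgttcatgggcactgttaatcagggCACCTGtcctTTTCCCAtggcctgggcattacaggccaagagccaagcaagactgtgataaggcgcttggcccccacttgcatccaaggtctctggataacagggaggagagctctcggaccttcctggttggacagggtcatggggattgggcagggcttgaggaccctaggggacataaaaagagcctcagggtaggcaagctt
Cela3b: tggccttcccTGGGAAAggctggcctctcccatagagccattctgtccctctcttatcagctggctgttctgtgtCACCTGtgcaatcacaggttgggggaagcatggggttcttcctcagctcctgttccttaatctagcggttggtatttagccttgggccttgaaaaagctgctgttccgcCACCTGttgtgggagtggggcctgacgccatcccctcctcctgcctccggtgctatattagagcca

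In Ctrb1 the CACCTG began 206 bases and the TTTCCCA 196 bases before the start site, and in Cela3b the CACCTG boxes began 175 and 66 bases and the reversed TTTCCCA 240 bases before it. The search covered 300 bases per promoter, 250 before and 50 after the start, on both strands. Of the called acinar genes, 17 had such a window: 9 held CACCTG, 4 (Cel, Cela3b, Ctrb1 and Prss1) held TTTCCCA and 8 held TATAAA. Those letters stood in 18.8%, 8.23% and 14.2% of all 33469 promoters. The matches describe sequence only.

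Pnliprp1, a pancreatic lipase-related protein, had the largest fall. Its levels were 10.83, 10.15, 11.34 and 11.27 in control pools 1 to 4 and 3.94, 7.73, 5.02 and 3.39 in lactating pools 1 to 4, and values are given in this pool order throughout. Every lactating pool lay below every control pool, with pool 2 the highest of the lactating pools. The difference was −5.88 ± 0.50 (SE), a 58.7-fold lower level (adjusted p = 2.1e-08), and without lactating pool 2 it was −6.78, 110.0-fold. For the called falls of this list the SE and adjusted p understate the spread between duodenum pools. They pool it with tissues where the mean of the list hardly varied, from 4.95 to 5.21 in the jejunum against 5.63 to 8.55 in lactating duodenum pools. Cel, the bile salt-stimulated lipase, measured 11.99, 11.16, 12.31 and 12.07 in control and 5.47, 9.56, 7.00 and 4.78 in lactating pools, a difference of −5.18 ± 0.55 (adjusted p = 6.3e-07). Lactating pool 2 again stood well above the other lactating pools and still below the lowest control pool. Of the other fat-digesting proteins, Pnlip, the main triglyceride lipase, fell by 4.74 ± 0.45, its cofactor colipase (Clps) by 3.94 ± 0.34, the phospholipase Pla2g1b by 4.51 ± 0.55, and Pnliprp2 by 2.43 ± 0.30.

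Of the 10 measured proteases of these families, 9 fell. Ctrb1, the gene whose promoter is printed above, was among the highest of all in control pools, at 13.38, 12.38, 13.15 and 13.03, and measured 8.39, 11.81, 9.43 and 7.16 in lactating pools. Its lactating pool 2 lay within 0.57 of the lowest control pool, while pool 4 lay 5.22 below it. The difference was −3.79 ± 0.52, 13.8-fold (adjusted p = 4.9e-05), and it was 25.2-fold without lactating pool 2 and 8.61-fold without lactating pool 4. Cela3b measured 10.08, 9.01, 10.42 and 9.24 in control and 4.99, 8.24, 5.79 and 4.75 in lactating pools, with no overlap (−3.75 ± 0.43, adjusted p = 2.6e-06). The chymotrypsin-like Ctrl fell by 4.78 ± 0.41, the carboxypeptidases Cpa1 and Cpb1 by 4.72 ± 0.52 and 4.74 ± 0.60, the elastases Cela2a and Cela1 by 4.43 ± 0.44 and 3.50 ± 0.33, and the trypsinogens Prss1 and Prss3b by 4.10 ± 0.71 and 4.05 ± 0.49. Trypsinogens and elastases are families of close copies, so probes for 1 member may also read another.

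Rnase1, the pancreatic ribonuclease, had the smallest adjusted p of the duodenum. It measured 8.86, 7.64, 9.23 and 8.74 in control and 3.83, 5.39, 4.10 and 4.19 in lactating pools. The gap between the groups, from 7.64 to 5.39, was wider than the range of either group (−4.24 ± 0.28, 18.9-fold, adjusted p = 1.1e-10). The zymogen granule genes Sycn and Gp2 fell by 5.44 ± 0.50 and 4.41 ± 0.49. Amy1, an amylase gene, was low on the array, at 3.01 to 4.90 in control and 2.26 to 2.51 in lactating pools (−1.65 ± 0.31, adjusted p = 0.0039), and its call ended without control pool 3 (adjusted p = 0.053). Cuzd1, a granule membrane protein, was the only called fall of the list whose groups overlapped, with lactating pool 2 at 6.19 against 4.82 in control pool 2 (−1.80 ± 0.42, adjusted p = 0.036), and leaving out any of 6 pools ended its call.

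4 measured members of the secreted list did not pass. Zg16, a lectin that goblet cells also make, stayed near the top of the range at 13.12, 12.94, 13.00 and 12.98 in control and 13.06, 12.87, 13.11 and 13.16 in lactating pools (0.04 ± 0.15). Dnase1, a nuclease, had a difference of −0.55 ± 0.27, the trypsin inhibitor Spink1 of −0.42 ± 0.36, and 1810009J06Rikl, matched to the list's trypsin Try4, of 0.07 ± 0.29. Reg1a rose and is given with the Reg3 genes.

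The called falls kept much the same order of pools. The mean level of all 25 measured members was 10.33, 9.35, 10.53 and 9.98 in control pools and 6.16, 8.55, 6.79 and 5.63 in lactating pools. Pool 2 was the lowest control pool for all 20 called falls and the highest lactating pool for 19 of them, and pool 4 was the lowest lactating pool for 16. In the 24 arrays of the other 3 tissues the mean level of the same 25 genes was 4.31 to 5.21, and none of the 20 called falls passed the test in liver, in jejunum (where 0.998% of named genes did) or in ileum (1.65%). Every duodenum array thus lay above every other array of the series on this measure. Leaving out lactating pool 2 raised the fold of 15 of the 20 by more than 1.5 times, to 70.0-fold for Cel and 34.6-fold for Prss1, and leaving out lactating pool 4 lowered it as much for 5, to 23.2-fold and 7.84-fold for the same genes. 5 of the 20 passed with the 8 duodenum arrays alone, with the spread taken from those arrays only: Clps, Ctrl, Pnliprp1, Rnase1 and Sycn.

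**Figure D1:**
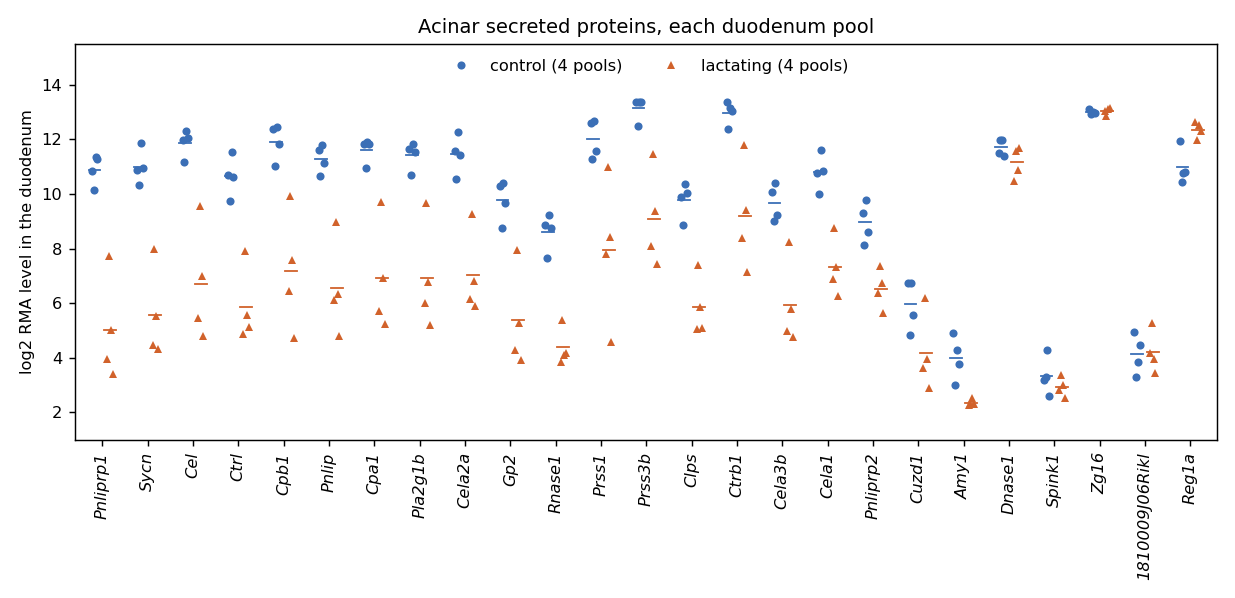
Log2 level of each of the 25 measured acinar secreted proteins in each duodenum pool (y axis), with circles for the 4 control pools, triangles for the 4 lactating pools and short lines for group means. The 20 called falls have control pools above most or all lactating pools, with pool 2 the highest lactating pool in 19 of them, while Zg16 lies near 13 in both groups and Reg1a is higher in lactating pools.

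A further list held genes that acinar cells use but do not secrete as enzymes. Of its 19 genes 16 were measured and 5 were lower, against 0.333% of all named genes. Mean levels were under 5 in both duodenum groups for 7 of the 16, and low values cannot be told from background here. Serpini2, a pancreas-made protease inhibitor, measured 5.93, 3.09, 5.82 and 4.29 in control and 2.03, 2.27, 1.95 and 1.83 in lactating pools (−2.76 ± 0.34, adjusted p = 9.3e-06), without overlap. The others were the water channel family member Aqp12a (−1.03 ± 0.21), the trafficking protein Tmed6 (−0.91 ± 0.17), the amino acid carrier Slc38a5 (−0.84 ± 0.12) and the ER protein Erp27 (−0.78 ± 0.12). The calls of Aqp12a and Tmed6 ended without control pool 3 (adjusted p = 0.080 and 0.053). The acinar transcription factors did not pass: Ptf1a differed by 0.04 ± 0.11, Rbpjl by −0.25 ± 0.10 with its groups apart, Bhlha15 by −0.19 ± 0.13 and Nr5a2 by −0.21 ± 0.16.

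Islet and gland genes lie near the acinar cells or in the duodenal wall. None of the 7 measured islet genes passed. Ins1, an insulin gene, measured 6.53, 5.26, 7.29 and 5.42 in control and 4.88, 5.07, 5.11 and 4.18 in lactating pools (−1.32 ± 0.44, adjusted p = 0.26), each lactating pool below each control pool. Of the 6 measured genes of Brunner gland and gastric-type mucus 1 fell. This was Tff2, a trefoil peptide of such glands, at 7.89, 6.77, 7.63 and 6.88 in control and 6.17, 6.10, 6.04 and 6.15 in lactating pools (−1.18 ± 0.23, adjusted p = 0.0053). Control pools spanned 1.12 and lactating pools 0.13, and the call ended without control pool 1 (adjusted p = 0.067) or control pool 3 (adjusted p = 0.053). Smooth muscle (10 measured), adipocyte (8) and hepatocyte (9) genes had no call, and 1 smooth muscle gene was lower with the replicate block.

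Among the lists of mineral genes, 1 of 7 measured phosphate, 2 of 15 calcium, 1 of 13 zinc importer, 1 of 9 zinc exporter and metallothionein, 2 of 12 iron and 1 of 8 copper and magnesium genes rose, and none fell. Over all named genes 0.476% rose and 0.333% fell. Slc34a2, the intestinal sodium-phosphate cotransporter, had the largest rise of the duodenum. It measured 6.66, 7.67, 7.46 and 7.05 in control and 10.43, 11.12, 10.95 and 11.47 in lactating pools. The lowest lactating pool lay 2.76 above the highest control pool, and the difference of 3.78 ± 0.28 was 13.8-fold (adjusted p = 9.7e-10). Its difference was 1.62 in the jejunum and 0.74 in the ileum.

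Of 15 measured genes of calcium absorption and vitamin D, 2 rose. Trpv6, the calcium channel of the enterocyte's luminal face, measured 9.65, 10.15, 10.24 and 9.97 in control and 11.23, 11.13, 11.46 and 11.46 in lactating pools, without overlap (1.32 ± 0.21, 2.49-fold, adjusted p = 0.00047). Cldn2, a tight junction protein of a cation pore, measured 8.14, 8.23, 8.14 and 7.78 against 8.87, 8.94, 8.99 and 8.85 (0.84 ± 0.15, adjusted p = 0.0016). No other gene of that list passed. S100g, the calcium-binding protein calbindin-D9k, measured 13.52, 13.34, 13.10 and 13.20 in control and 13.58, 13.24, 13.32 and 13.34 in lactating pools (0.08 ± 0.35). Its duodenal level lay close to the highest value of any array, 14.41. In the jejunum and ileum S100g differed by 2.15 and 1.81.

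Magnesium, zinc, iron and copper genes each held a call or a near one. Trpm6, a magnesium channel, measured 6.46, 6.83, 6.49 and 6.74 in control and 7.59, 8.19, 7.87 and 8.17 in lactating pools (1.32 ± 0.14, 2.5-fold, adjusted p = 3.7e-07), all lactating pools above all control pools. Slc39a4, the zinc importer ZIP4, measured 11.44, 11.58, 11.67 and 11.24 against 12.54, 12.32, 12.43 and 12.36 (0.93 ± 0.09, adjusted p = 2.6e-07), again without overlap. It was the only called gene of 13 measured zinc importers. Slc39a10, another importer, measured 6.33, 6.16, 6.27 and 6.39 against 6.85, 6.88, 6.79 and 7.20 (0.64 ± 0.16, adjusted p = 0.052) and passed with the replicate block (adjusted p = 0.015). Slc30a2, a zinc exporter into vesicles, rose by 0.82 ± 0.16 (adjusted p = 0.0083), a call that ended without control pool 4 (adjusted p = 0.073) or lactating pool 3 (adjusted p = 0.065).

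For iron, 2 of 12 measured genes rose. Hmox1, the heme oxygenase that frees iron from heme, measured 6.76, 7.27, 7.27 and 6.27 in control and 8.15, 8.65, 8.29 and 8.12 in lactating pools (1.41 ± 0.19, 2.66-fold, adjusted p = 2.1e-05). Slc11a2, the iron importer DMT1, measured 11.46, 11.02, 10.91 and 11.49 against 11.92, 11.86, 12.05 and 11.97 (0.73 ± 0.13, adjusted p = 0.0012), so the lactating pools lay in a narrow band above the controls. Its difference was 1.10 in the jejunum and −0.34 in the ileum. Cybrd1, the duodenal ferric reductase, had all lactating pools above all control pools and did not pass (0.42 ± 0.15, adjusted p = 0.33). Atp7a, a copper exporter, was likewise apart (0.66 ± 0.18, adjusted p = 0.13) and passed with the replicate block (adjusted p = 0.019).

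Of 15 measured genes of vitamin transport and handling 1 rose and 1 fell, against 0.476% and 0.333% of all named genes. Slc52a3, a riboflavin transporter, measured 7.47, 8.01, 7.81 and 7.60 in control and 8.67, 8.74, 8.59 and 8.75 in lactating pools (0.97 ± 0.15, adjusted p = 0.00032), and the lactating pools spanned only 0.16. Slc23a2, a vitamin C carrier, was lower with overlapping groups (−0.52 ± 0.11, adjusted p = 0.023), and leaving out any of 5 pools ended its call. Slc10a2, the sodium-dependent bile acid carrier that is typical of the ileum, measured 6.55, 6.30, 6.32 and 6.36 against 7.20, 6.80, 6.98 and 7.22 (0.67 ± 0.15, adjusted p = 0.032), a call that ended with any 1 of 6 pools left out. Abcg2, an exporter of drugs and other compounds, rose by 0.63 ± 0.13 (adjusted p = 0.0081; 0.053 without lactating pool 1), and Ankh, a pyrophosphate exporter, by 0.44 ± 0.09 (adjusted p = 0.014, ended with any 1 of 6 pools left out). None of 6 genes of sugar transport and use, 17 brush border genes or 14 genes of lipid absorption passed (with the replicate block 1 of the sugar genes was lower). Of 21 peptide and amino acid carriers only Slc6a20a did, as a fall.

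**Figure D2:**
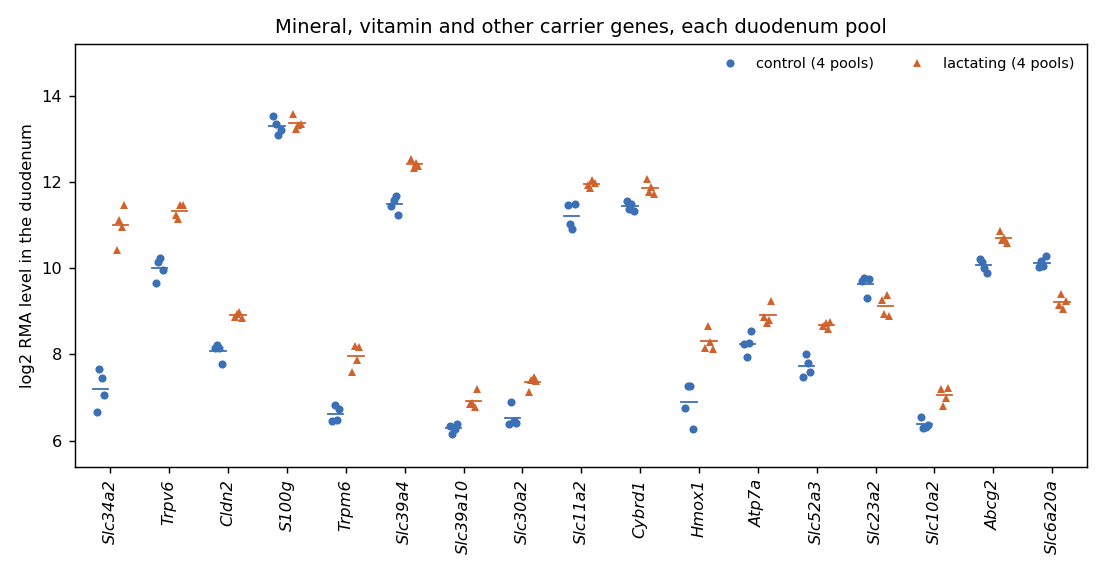
Log2 level of 17 carrier and mineral-handling genes in each duodenum pool (y axis), circles for the 4 control and triangles for the 4 lactating pools, lines for group means. Slc34a2 shows the widest gap, from 7.67 in the highest control to 10.43 in the lowest lactating pool, S100g overlaps near 13, and Slc6a20a and Slc23a2 are the 2 genes with lower lactating means.

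Cholesterol synthesis genes rose together in the duodenum. Enterocytes build cholesterol from acetyl-CoA by way of mevalonate and squalene, and the enzymes are controlled by Srebp transcription factors, which Insig proteins hold back in the ER. Of 16 measured enzymes 12 were higher in lactating pools (75% against 0.476% of all named genes), 13 with the replicate block, and all 16 differences were above 0. The median difference was 1.02 for the 6 enzymes up to squalene and 0.67 for the 10 from squalene to cholesterol. 5 of the 12 passed with the 8 duodenum arrays alone, and 7 kept the call whichever pool was left out. The study names this pathway from these samples, so its count is not independent of that choice.

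Promoters of 2 called genes of this kind are shown for their CCAAT boxes, which the factor NF-Y binds and which often lie beside Srebp sites. The sequences are RefSeq GRCr8, 250 bases up to the start site on the strand of the gene, with ATTGG in capitals marking CCAAT on the other strand. Insig1 is at chr4:8057770-8058019, minus strand, and Hsd17b7, an enzyme that reduces a sterol ketone, at chr13:84722755-84723004, minus strand.
Insig1: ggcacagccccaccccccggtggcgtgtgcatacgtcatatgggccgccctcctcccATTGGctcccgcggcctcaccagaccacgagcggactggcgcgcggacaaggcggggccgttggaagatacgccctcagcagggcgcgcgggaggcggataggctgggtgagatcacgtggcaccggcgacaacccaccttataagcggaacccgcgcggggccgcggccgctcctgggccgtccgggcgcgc
Hsd17b7: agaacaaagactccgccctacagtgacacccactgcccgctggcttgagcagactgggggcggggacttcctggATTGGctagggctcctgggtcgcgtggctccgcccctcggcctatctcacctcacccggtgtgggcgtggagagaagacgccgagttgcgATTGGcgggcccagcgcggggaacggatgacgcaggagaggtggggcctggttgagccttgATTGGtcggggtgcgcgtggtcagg

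The box of Insig1 began 193 bases before the start site and those of Hsd17b7 176, 86 and 25 bases before it. CCAAT was found in 7 of the 10 called sterol synthesis genes with a window and in 37.5% of all promoters. The sterol element TCACNCCAC was in none of the 10 windows and in 1.12% of all promoters, which says only that these letters were not in this window.

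Sqle, squalene epoxidase, which starts the path from squalene, was the most even of the enzymes. It measured 9.27, 9.30, 9.32 and 9.23 in control and 10.53, 10.47, 10.45 and 10.40 in lactating pools, so each group spanned 0.13 or less. The difference was 1.18 ± 0.16 (2.27-fold, adjusted p = 4.9e-05). Cyp51, the lanosterol demethylase, measured 9.94, 10.19, 10.22 and 10.15 against 11.09, 11.32, 11.26 and 11.24 (1.10 ± 0.12, adjusted p = 8.9e-07), and Msmo1, the next oxidase, 10.25, 10.31, 10.10 and 10.43 against 11.30, 11.27, 11.36 and 11.67 (1.13 ± 0.12, adjusted p = 1.2e-06). Neither gene had overlapping groups.

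Upstream of squalene, Acat2, which joins acetyl-CoA units, rose by 1.28 ± 0.28, the mevalonate enzymes Mvd and Idi1 by 1.09 ± 0.21 and 1.07 ± 0.15, and squalene synthase Fdft1 by 0.97 ± 0.13. Downstream, Nsdhl rose by 0.76 ± 0.10, Lss by 0.71 ± 0.17, Dhcr7 by 0.62 ± 0.13, Hsd17b7 by 0.61 ± 0.12 and Sc5d by 0.52 ± 0.11. The groups of Lss overlapped, and its call ended with any 1 of 7 pools left out. The calls of Acat2 and Dhcr7 ended with any 1 of 5 pools left out, that of Sc5d with any 1 of 4 left out, and that of Hsd17b7 without control pool 1 (adjusted p = 0.082) or control pool 3 (adjusted p = 0.053). The 4 enzymes that did not pass were Ebp (0.55 ± 0.25; adjusted p = 0.0088 with the replicate block), Pmvk (0.43 ± 0.31), Tm7sf2 (0.31 ± 0.15) and Ggps1 (0.11 ± 0.16).

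Of 11 measured genes of Srebp control and LDL uptake 2 rose. Insig1 measured 10.51, 10.60, 10.78 and 10.61 in control and 11.69, 12.03, 11.94 and 11.90 in lactating pools, without overlap (1.26 ± 0.16, 2.4-fold, adjusted p = 1.6e-05). Tmem97, a sterol-responsive membrane protein, rose by 1.01 ± 0.18 (adjusted p = 0.0029). In fatty acid synthesis 2 of 12 measured genes rose: the desaturase Scd2, at 7.04, 7.32, 7.53 and 7.68 against 9.05, 8.67, 8.96 and 9.19 (1.57 ± 0.32, adjusted p = 0.0093), and the desaturase Fads1 (0.69 ± 0.12, adjusted p = 0.0015). Scd2 lost its call without control pool 2 (adjusted p = 0.058) or lactating pool 3 (adjusted p = 0.063). The sterol export and absorption list (10 measured) and fatty acid oxidation (16 measured) had no call. With the replicate block 2 sterol export and absorption genes passed as higher and 1 fatty acid oxidation gene as lower.

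**Figure D3:**
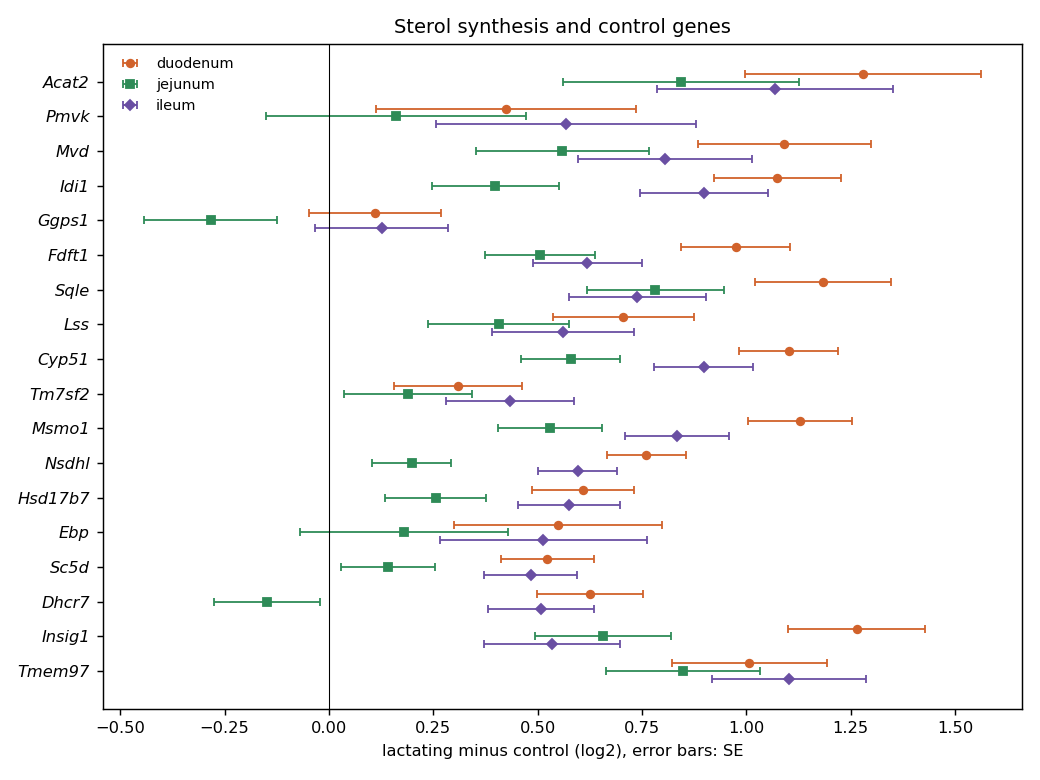
Lactating minus control log2 difference (x axis, error bars SE) of the 16 measured sterol synthesis enzymes, Insig1 and Tmem97, with a circle for the duodenum, a square for the jejunum and a diamond for the ileum, 4 pools per group. In the duodenum all 18 points lie above 0, from 0.11 for Ggps1 to 1.28 for Acat2.

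Of 15 measured genes of gut hormones and hormone cells 1 rose, against 0.476% of all named genes. Nts, neurotensin, a peptide of gut hormone cells, measured 4.55, 4.62, 4.69 and 3.47 in control and 5.95, 6.58, 5.41 and 6.73 in lactating pools (1.84 ± 0.27, 3.57-fold, adjusted p = 0.00015). The groups did not overlap, and control pool 4 was the lowest of all 8. Every control value of Nts lay below the medians of the duodenum arrays (4.74 to 4.81), where levels cannot be told from background here. Gcg, which encodes glucagon-like peptides, had its groups apart (0.88 ± 0.25, adjusted p = 0.15; 0.038 with the replicate block), as had Cck, cholecystokinin (0.49 ± 0.17, adjusted p = 0.29). Sct, secretin, which makes the pancreas release bicarbonate, differed by 0.70 ± 0.33 (adjusted p = 0.53), with overlap.

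Areg, amphiregulin, a ligand of the EGF receptor, measured 8.08, 8.34, 8.28 and 8.23 in control and 9.69, 9.28, 9.11 and 9.34 in lactating pools (1.12 ± 0.15, adjusted p = 1.7e-05). Il33, an alarm cytokine of epithelial and stromal cells, measured 6.91, 7.27, 6.91 and 7.16 against 8.35, 8.51, 8.05 and 8.72 (1.35 ± 0.15, 2.55-fold, adjusted p = 1.2e-06). Neither overlapped. The transcription cofactor Lbh rose by 1.18 ± 0.14 (adjusted p = 5.7e-06) and the surface protein Lypd3 by 0.97 ± 0.16 (adjusted p = 0.00092). Fga, the fibrinogen alpha chain, rose by 1.50 ± 0.25 (adjusted p = 0.00082). Its control levels of 4.19 to 4.61 lay below the medians of the duodenum arrays (4.74 to 4.81). The study also lists Fga as higher in the jejunum and ileum. Ripk3, a kinase of necroptosis, rose by 1.06 ± 0.20 (adjusted p = 0.0053; 0.058 without lactating pool 3).

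Of the Reg genes, whose Reg3 lectins defend the mucosa against bacteria, Reg3b, Reg3g and Reg1a rose and Reg3a did not pass. Reg3b measured 12.62, 9.42, 9.87 and 8.75 in control and 13.01, 12.39, 13.38 and 12.18 in lactating pools (2.58 ± 0.53, 5.97-fold, adjusted p = 0.010). Reg3g measured 13.03, 9.84, 9.77 and 9.90 against 13.14, 11.89, 13.24 and 12.69 (2.10 ± 0.51, adjusted p = 0.045). Control pool 1 lay within the lactating range for both, and without that pool the folds were 10.5 for Reg3b and 7.48 for Reg3g, against 5.97 and 4.3 with all pools. Leaving out any of 5 pools ended the call of Reg3b and any of 7 that of Reg3g. Reg1a, which acinar cells and mucosa both make, measured 11.95, 10.45, 10.78 and 10.80 against 12.63, 11.98, 12.52 and 12.30 (1.36 ± 0.31, adjusted p = 0.031), a call that ended with any 1 of 6 pools left out. Its difference was 1.74 in the jejunum and 2.26 in the ileum, where the other acinar secreted proteins had none called. Reg3a was at 6.71 in control pool 1 and at 2.31 to 3.04 in the 7 other pools (−0.74 ± 0.52, adjusted p = 0.75).

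Of 25 measured genes of mitosis and DNA replication, Aurka, a mitotic kinase, alone rose (0.69 ± 0.16, adjusted p = 0.029; ended with any 1 of 5 pools left out), and 3 passed with the replicate block. All 25 differences were above 0 with a median of 0.46, and 10 had lactating pools all above control pools, against 4.59% of all named genes. None of the 6 stem and crypt genes passed. In the interferon list 1 of 18 rose, Oas1a, an antiviral synthetase, with overlapping groups (1.27 ± 0.30, adjusted p = 0.037, ended with any 1 of 5 pools left out), and 3 passed with the block.

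The 19 falls outside the acinar lists were smaller than those of the enzymes. Klk1b3, a kallikrein-family protease, led them, at 9.63, 9.28, 10.28 and 9.45 in control and 7.41, 8.35, 7.60 and 8.01 in lactating pools (−1.82 ± 0.25, 3.52-fold, adjusted p = 5.5e-05). Its groups did not overlap, and lactating pool 2 was the highest lactating pool, as it was for 11 of the 19. Klk1b3, Tff2 and Tmed11, a p24-family trafficking protein (−0.77 ± 0.14, adjusted p = 0.0026), fell in the duodenum with differences between −0.32 and 0.40 in jejunum and ileum, as the acinar enzymes did. Whether these 3 belong to the same source as the enzymes was not tested.

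Another 8 falls are given singly, of which Slc23a2 stands with the carriers. Slc6a20a, a carrier of proline and other imino acids, measured 10.03, 10.17, 10.05 and 10.28 in control and 9.14, 9.40, 9.06 and 9.23 in lactating pools (−0.93 ± 0.16, adjusted p = 0.00092), and Lrp1, an endocytic receptor, 8.18, 8.20, 8.20 and 8.28 against 7.35, 7.70, 7.47 and 7.56 (−0.69 ± 0.10, adjusted p = 7.7e-05). Both were apart, with control pools within 0.25 of each other. Nrg4, a ligand of the ErbB4 receptor, fell by 0.92 ± 0.12 (adjusted p = 1.3e-05) and Klf9, a transcription factor that glucocorticoids and thyroid hormone induce, by 0.76 ± 0.12 (adjusted p = 0.00063). Ugt2b7, a glucuronosyltransferase, fell by 1.15 ± 0.23 (adjusted p = 0.0065) and the chromatin remodeller Chd3 by 0.49 ± 0.09 (adjusted p = 0.0022). Capn8, a calpain of mucus cells, fell by 0.98 ± 0.20 (adjusted p = 0.0083), which did not pass without control pool 1 (adjusted p = 0.051) or control pool 3 (adjusted p = 0.053).

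The other 8 of the 19 rested on more pools. The iodotyrosine deiodinase Iyd (−0.97 ± 0.21), autotaxin (Enpp2, −0.84 ± 0.19), the kinase Bmx (−0.65 ± 0.16), the epoxygenase Cyp2c23 (−0.60 ± 0.12), the leukocyte phosphatase CD45 (Ptprc, −0.60 ± 0.14), the actin nucleator Cobl (−0.51 ± 0.11), the tuft cell channel Trpm5 (−0.45 ± 0.09) and the potassium channel Kcnma1 (−0.32 ± 0.07) each lost the call with any 1 of 4 to 7 pools left out. Ptprc was the only call among 18 measured T and cytotoxic lymphocyte genes, whose median difference was −0.17. No B cell, MHC class II, mast cell or macrophage gene passed (5, 11 and 11 measured, mast cell and macrophage genes being 1 list).

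**Figure D4:**
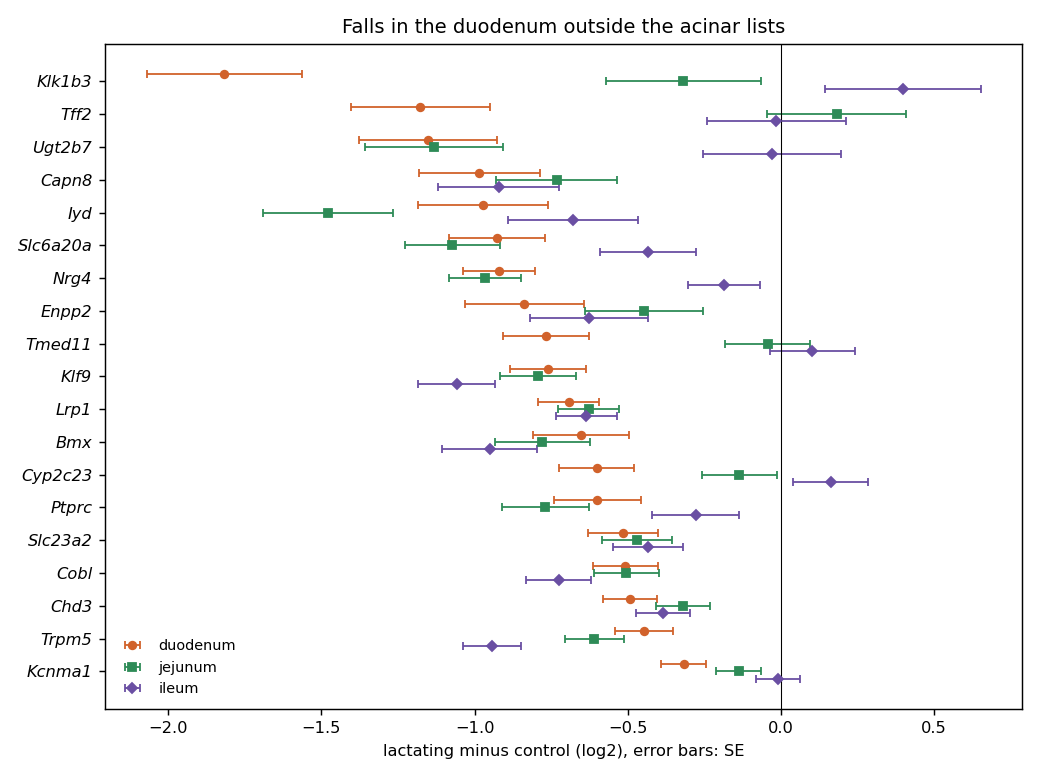
Lactating minus control log2 difference (x axis, error bars SE) of the 19 called falls outside the acinar lists, circles for the duodenum, squares for the jejunum and diamonds for the ileum, 4 pools per group. Klk1b3, Tff2 and Tmed11 fall in the duodenum with points near 0 in the other segments, whereas Lrp1 lies between −0.69 and −0.63 in all 3.

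Which duodenal differences departed from those of the lower gut was tested as the duodenal difference minus the mean of the jejunal and ileal differences. That contrast passed for 52 named genes (0.393%), 20 higher and 32 lower, and 23 of them were in the acinar lists. Among mucosal genes, Slc34a2 had the largest excess of those that also rose in the duodenum itself (2.60 ± 0.31, adjusted p = 7.1e-06), followed by Nts (2.06 ± 0.31, adjusted p = 0.00024), Trpm6 (1.40 ± 0.15, adjusted p = 1.4e-06), Lbh (1.17 ± 0.16), Il33 (1.10 ± 0.17), Slc52a3 (1.01 ± 0.17) and Lypd3 (1.01 ± 0.18). Trpm6 and Slc52a3 had jejunal differences of 0.19 and 0.31 and ileal ones of −0.35 and −0.39. No sterol synthesis gene passed the contrast by limma or by the mixed model (7 of 16 at an unadjusted p under 0.05), although 13 of the 16 had their largest intestinal difference in the duodenum. Trpv6 did not pass it (−0.15 ± 0.24), with 2.86 in the jejunum and 0.08 in the ileum on either side of the duodenal 1.32.

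Some genes passed the contrast without passing the test in the duodenum itself. Gnat3, the taste-type G protein gustducin of tuft cells, differed by 0.11 in the duodenum and by −1.17 and −1.23 in jejunum and ileum (contrast 1.30 ± 0.21, adjusted p = 0.00054). S100g, with 0.08 against 2.15 and 1.81, gave −1.90 ± 0.39 (adjusted p = 0.019), and Dmbt1, a mucosal defence glycoprotein, with 0.40 against 1.35 and 1.61, gave −1.08 ± 0.22 (adjusted p = 0.015). Adipoq and Car3, which fat tissue expresses strongly, differed by −0.03 and −0.02 in the duodenum and by −2.94 and −2.84 in the jejunum. Their contrasts of 1.62 and 1.85 came mainly from the jejunum, since their ileal differences were smaller. Plb1, a brush border phospholipase, was at 4.09 to 4.33 in 7 duodenum pools and at 7.00 in lactating pool 4. Its duodenal difference was 0.69, and −0.0013 without that pool, beside a contrast of 3.37.

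**Figure D5:**
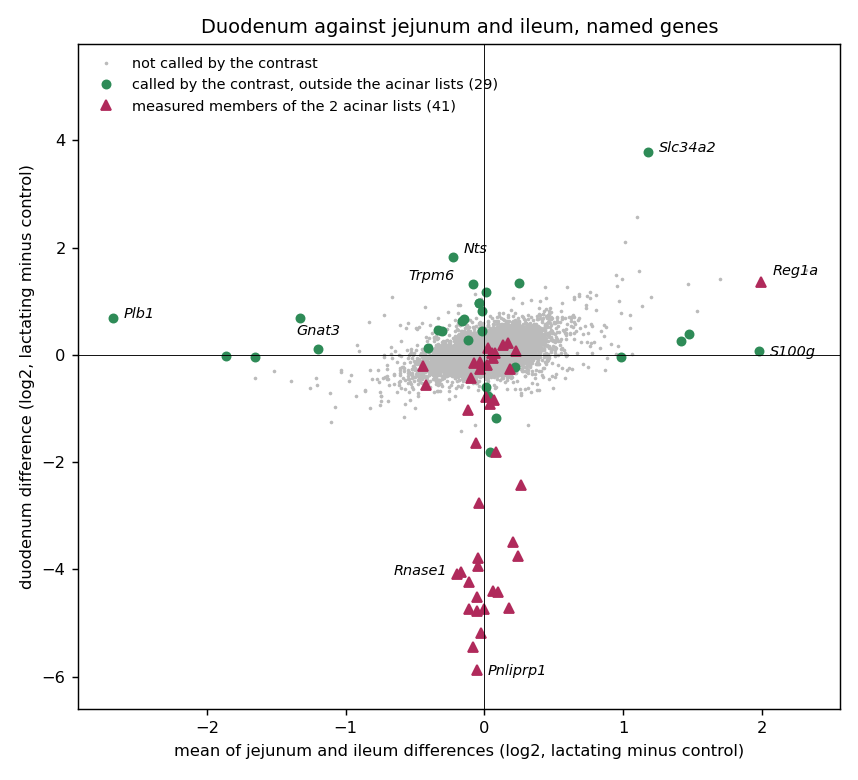
Each point is a named gene, with the mean of its jejunal and ileal lactating minus control log2 differences on the x axis and its duodenal difference on the y axis. Filled circles are 29 genes outside the acinar lists that passed the contrast, and triangles are the 41 measured acinar genes, most of which lie near 0 on the x axis and reach down to −5.88 for Pnliprp1.

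Several programmes had no call in the duodenum. These were the 18 measured respiratory chain genes, 33 of extracellular matrix, 17 of protein folding in the ER, 17 of prolactin, growth hormone and Jak-Stat signalling, 14 of the circadian clock, 30 of bicarbonate and ion transport, 5 goblet genes and 18 of serine, asparagine and the Atf4 response. Over all 24 lists without a call, which hold 307 different genes, limma gave 50 genes an unadjusted p under 0.05, as it did 1423 of all 13222, and 14 passed with the replicate block, among them 4 in bicarbonate and ion transport, 2 in extracellular matrix, 1 in the clock list and 1 in protein folding, and 0 with the study's mixed model. A count of 0 does not show that genes did not differ. In simulated data of the same layout, each gene had an equal spread in all tissues. There 34% of genes changed by 0.5 on the log2 scale and 86% of those changed by 1 were called.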

How the data were processed

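RNA of 4 rats per pool, 32 pooled RNAs in all, was hybridized to Affymetrix Rat Exon 1.0 ST arrays, 4 arrays for each of 8 groups (4 tissues, 2 states). The deposited log2 values per transcript cluster were made by the authors with the robust multi-array average (RMA) in Affymetrix Expression Console, whose version is not given in the sources used here. RMA corrects background and equalizes the distribution over the arrays it is run on, which can compress differences at the lowest and highest levels. No probe intensities or detection calls were used here, so low values cannot be told from background. The precision stated rests on the number of arrays and on how the fit pools their spread. Symbols came from the platform annotation: 13335 clusters carried 1 symbol, 612 several and 5487 none. Where several clusters shared a gene (103 genes), the brightest on average stood for it.

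Values were fitted with limma 3.58.1 (R 4.3.3, statmod 1.5.0) as 8 group means with the pool as random block (correlation 0.16), moderated by eBayes. Adjusted p-values are two-sided, of Benjamini and Hochberg over 19434 clusters, and were called under 0.05. No scan date or batch is given in the labels. P-values measure the spread between pools of 4 rats, pooled over the 4 tissues, not between rats. Deviations from group means of same-numbered control and lactating pools, averaged over tissues, correlated at 0.65, 0.43, 0.31 and 0.82 (0.34, 0.20, 0.17 and 0.58 in the duodenum alone). Pools of unlike number correlated at −0.56 to 0.31. Control pool 3 correlated as closely with lactating pool 2 (0.31, and 0.16 in the duodenum) as with lactating pool 3, so its pairing is not distinct. The numbers were taken to pair the pools by this check of the data, since no source states what a shared number means. The replicate-block fit is therefore given beside the named genes and lists whose calls it changes. In simulated data of this layout with 50 genes changed per size, limma called 34%, 86%, 98% and 100% of changes of 0.5, 1, 2 and 4 on the log2 scale, and 5.36% of its calls were unchanged genes. Each simulated gene had the same spread in all tissues, so these rates do not cover genes that vary more in the duodenum.

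Members, the 51 gene lists and the tests were chosen with earlier results of these data known. Named genes are the 20 largest rises and falls with groups apart, up to 6 called members of each list, every measured acinar secreted protein, the 8 largest contrasts with the lower gut in each direction, genes the study names and, for lists with fewer than 2 calls, up to 4 members by level or p. The remaining falls outside the acinar lists and the uncalled sterol genes complete a set. S100g, Dmbt1, Cybrd1, Ankh, Lypd3 and Nxf2 were chosen after their values were seen. Promoters were those of RefSeq GRCr8, and 91 of the 107 called genes had one.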

Additional observations from a re-analysis of the deposited data

Results flagged for a closer look

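Among 232 groups of 4 pools examined for the genes named here, 13 had a pool whose gap to the others exceeded Dixon's critical share of the group's range. Chance flags about 1 in 20 such groups. Control pool 2 was low for Cpa1 (10.95, against 11.83 to 11.89 in the other control pools) and Prss3b (12.48, against 13.36 to 13.38) and high for Slc30a2 (6.89, against 6.38 to 6.46). Control pool 1 was high for Reg3g (13.03, against 9.77 to 9.90), Reg3a (6.71, against 2.31 to 2.88) and Ugt2b7 (10.36, against 9.59 to 9.72). Control pool 3 was high for Bhlha15 (6.48, against 6.01 to 6.08) and low for Slc23a2 (9.30, against 9.70 to 9.78) and Krt20 (12.31, against 12.47 to 12.49). Control pool 4 was low for Nts (3.47, against 4.55 to 4.69) and Sct (7.29, against 8.37 to 8.48). Lactating pool 1 was low for Aqp12a (4.26, against 5.42 to 5.47), and lactating pool 4 was high for Plb1 (7.00, against 4.12 to 4.32).

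For 46 of the genes named here the duodenal difference departed from the mean of the jejunal and ileal differences by the test of that contrast (limma, adjusted p under 0.05). The digestive enzymes and granule proteins had contrasts of -5.82 (Pnliprp1), -5.36 (Sycn), -5.16 (Cel), -4.90 (Cpa1), -4.74 (Pnlip), -4.73 (Ctrl), -4.63 (Cpb1), -4.52 (Cela2a), -4.48 (Gp2), -4.46 (Pla2g1b), -4.13 (Rnase1), -3.99 (Cela3b), -3.90 (Prss1), -3.89 (Clps), -3.88 (Prss3b), -3.74 (Ctrb1), -3.71 (Cela1), -2.69 (Pnliprp2) and -1.59 (Amy1). Other acinar genes had -2.73 (Serpini2), -0.95 (Tmed6), -0.91 (Slc38a5) and -0.80 (Erp27), and genes outside the acinar lists -1.90 (S100g), -1.86 (Klk1b3), -1.26 (Tff2), -1.08 (Dmbt1), -0.80 (Tmed11) and -0.62 (Cyp2c23). Positive contrasts among carriers were 2.60 for Slc34a2, 2.02 for Slc7a15, 1.40 for Trpm6, 1.01 for Slc52a3, 0.83 for Slc30a2, 0.82 for Slc10a2, 0.80 for Slc39a10 and 0.46 for Ankh. Those of the other genes were 3.37 for Plb1, 2.06 for Nts, 1.85 for Car3, 1.62 for Adipoq, 1.30 for Gnat3, 1.17 for Lbh, 1.10 for Il33, 1.01 for Lypd3 and 0.40 for Nxf2, an RNA export family member that rose by 0.29 in the duodenum (adjusted p = 0.047) and lost that call with any 1 of the 8 pools left out.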

How the results depend on the processing

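The count of 107 named genes (63 higher, 44 lower) became 317 (229, 88) with the replicate block, 28 (17, 11) with only the 8 duodenum arrays, 305 (193, 112) with array weights and 382 (272, 110) at the study's unadjusted thresholds, and lay between 69 and 114 with 1 pool left out (34 to 70 higher, 32 to 45 lower). The rises numbered fewest without control pool 1, 3 or 4 or lactating pool 2 or 3 (41, 40, 37, 39 and 34). The 20 acinar falls and the 12 sterol rises became 5 and 5 with the duodenum arrays alone. That fit has fewer arrays and takes its spread from the duodenum pools only. Both counts stayed within 1.5 times their value under every other alternative run, as the 52 contrast calls did under all. The replicate block ended no call of the 85 called genes named here, added Slc39a10, Atp7a, Ebp and Gcg, and changed no other call of the genes named here; the fit on the 8 duodenum arrays ended 58, the mixed model 15, quantile normalization within tissues 7, no random block 6 and array weights 2. No called gene named here turned direction under any alternative. Uncalled genes that did with a pool left out were 1810009J06Rikl (-0.28 to 0.35), Ptf1a (-0.021 to 0.12), Reg3a (-1.17 to 0.30), Plb1 (-0.0013 to 0.96), Adipoq (-0.14 to 0.023), Car3 (-0.16 to 0.081), Cdh17 (-0.0019 to 0.063) and Hnf4a (-0.057 to 0.047). The cause of these changes was not tested.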
